A study of Homo sapiens with 4 samples.

Results

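The E2F transcription factors and the RB family proteins that hold them in check were examined in neuroblastoma cells after knockdown of NeuroD1. The 10 genes were chosen by name from the 60612 genes of a raw count table. They are the activators E2F1, E2F2 and E2F3, the repressors E2F4, E2F5 and E2F6, the atypical E2F7 and E2F8, and the RB family genes RB1 and RBL1. RNA sequencing (RNAseq) covered 4 libraries made from IMR-32 cells, a neuroblastoma line in long use that carries amplified MYCN. 2 libraries came from cells with a control hairpin (shControl, labelled WT) and 2 from cells with a hairpin against NeuroD1 (shNeuroD1, labelled NeuroD1 knockdown). Cells of both groups were stably transduced, and both received doxycycline, which turns the hairpin on, at 1 µg/mL for 48 h. The study used 2 NeuroD1 hairpins, numbered like the titles of these libraries. Its table of differential expression names both columns for the second hairpin, so the numbers were read as replicates and hairpins were not compared. Nothing in the labels ties the replicates to separate cultures, and p-values then measure only the spread between these libraries.

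E2F proteins bind DNA together with a DP partner and switch on genes that a cell needs to copy its DNA. In resting cells the RB family (RB1, RBL1 or p107, and RBL2 or p130) binds E2F and keeps those genes off, until cyclin-dependent kinases phosphorylate the RB proteins and release it. RB1 mainly holds the activators, while RBL1 and RBL2 work with E2F4 and E2F5. E2F6 lacks an RB-binding part and represses through Polycomb-like partners, and E2F7 and E2F8 bind DNA without a DP partner and repress late in S phase. Several E2F genes and RBL1 are themselves known E2F targets, so that their transcripts rise and fall with the cell cycle.

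The libraries held between 14665210 and 16482463 counts. NEUROD1, the targeted gene, was at 418.9 and 414.5 CPM (counts scaled to library size, with TMM between libraries) in shControl and at 63.7 and 58.2 CPM in shNeuroD1, in the direction of the labels. All 10 adrenergic neuroblastoma markers reached 1 CPM, with a summed level of 4199.9 to 4309 CPM in shControl and 3975 to 4001 CPM in shNeuroD1 (4 lower and 4 higher by edgeR). Of markers of other cells, 5 of 8 mesenchymal genes reached 1 CPM in at least 1 library (summed 252.0 and 252.1 against 198 and 207 CPM, 2 lower and 3 higher, PRRX1 at 0), as did 4 of 5 Schwann cell genes (5.42 and 5.43 against 8.74 and 10.1 CPM, 0 lower and 2 higher). The same was true of 1 of 4 epithelial genes (0 to 0.504 against 1.38 to 1.84 CPM, 0 lower and 1 higher, CDH1 and KRT5 at 0). It was also true of 2 of 4 endothelial genes (1.64 to 1.9 against 1.38 to 1.58 CPM, 1 lower and 1 higher). Over all genes tested, 28.2% were lower and 26.8% higher. Whether the cells behind these markers bear on the results was not tested. In bulk RNA, fewer cells that make a transcript and less of it per cell cannot be told apart.

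The promoters of the family are shown first, because 5 of the 7 genes with a usable promoter sequence held strings of the E2F binding site. RefSeq windows (GRCh38.p14, from 250 bases before a start to 50 after it) were used for 7 of the 10 genes, with 8 windows in all. The window of RB1 lies at an internal start and was not used, and E2F5 and E2F8 had no entry. The 8 windows were searched on both strands for the E2F site in 4 spellings, namely TTTCGCG, the closely related form TTTGGCG, another form spelled TTTCCCG and last the form TTTGCCG, and overlapping matches were counted separately. Positions count from the start, with -1 as the base before it. In the 80 bases just before each start below, capitals mark these strings on either strand. The first 4 are the activators and RBL1, and the last 3 are E2F6, E2F4 and E2F7.
E2F1, chr20:33686386-33686465, minus strand: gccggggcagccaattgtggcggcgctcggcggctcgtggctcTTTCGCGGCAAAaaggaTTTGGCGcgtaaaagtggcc
E2F2, chr1:23531234-23531313, minus strand: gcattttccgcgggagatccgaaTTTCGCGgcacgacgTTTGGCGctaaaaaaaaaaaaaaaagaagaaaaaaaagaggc
E2F3 upstream start, chr6:20401799-20401878, plus strand: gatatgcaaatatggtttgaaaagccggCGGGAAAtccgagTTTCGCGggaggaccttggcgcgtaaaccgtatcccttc
RBL1, chr20:37095998-37096077, minus strand: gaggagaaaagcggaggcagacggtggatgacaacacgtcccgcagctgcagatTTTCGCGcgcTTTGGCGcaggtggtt
E2F6, chr2:11466162-11466241, minus strand: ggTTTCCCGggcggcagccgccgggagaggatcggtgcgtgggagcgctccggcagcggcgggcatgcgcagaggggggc
E2F4, chr16:67192075-67192154, plus strand: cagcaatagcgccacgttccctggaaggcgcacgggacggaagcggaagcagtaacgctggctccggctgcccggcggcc
E2F7, chr12:77065570-77065649, minus strand: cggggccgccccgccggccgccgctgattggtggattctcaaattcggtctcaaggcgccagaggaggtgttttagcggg

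E2F1, E2F2 and RBL1 each held TTTCGCG followed a few bases on by TTTGGCG, and the pair began at position -37 in E2F1, -57 in E2F2 and -26 in RBL1. Only 16 of all 35116 promoter windows (0.0456%) held both. In E2F1 a reversed TTTGCCG overlapped the first of them. The upstream start of E2F3 held TTTCGCG and a reversed TTTCCCG, and E2F6 held TTTCCCG at -78 and again at -183. Windows with 2 or more E2F-type matches made up 0.681% of all windows, and windows with at least 1 made up 8.67%. Neither E2F4 nor E2F7, nor the downstream start of E2F3, held any of the 4 strings. E2F4 did not pass the test below, while E2F7 fell to 33.4% of its control mean, so the number of matches did not order the changes.

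NeuroD1 and its relatives bind short sites called E-boxes. Of the 2 spellings searched for NeuroD1, CAGCTG lay at -37 in RBL1, at 37 after the upstream E2F3 start and at -147 from the downstream one, and 17.9% of all windows held it. The E-box of MYC proteins, CACGTG, lay at -80 from the downstream E2F3 start (7.26% of all windows). None of the member windows held the other spelling, CAGATG (14.7% of all windows). The CHR string TTTGAA of the DREAM complex was met once, at -65 from the upstream E2F3 start (15.2% of all windows). CCAAT, the site of NF-Y, was found 3 times in E2F1 and 4 times each in E2F7 and at the upstream start of E2F3 (34.6% of all windows held at least 1). These are letter matches, and binding was not measured here.

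**Figure D1:**
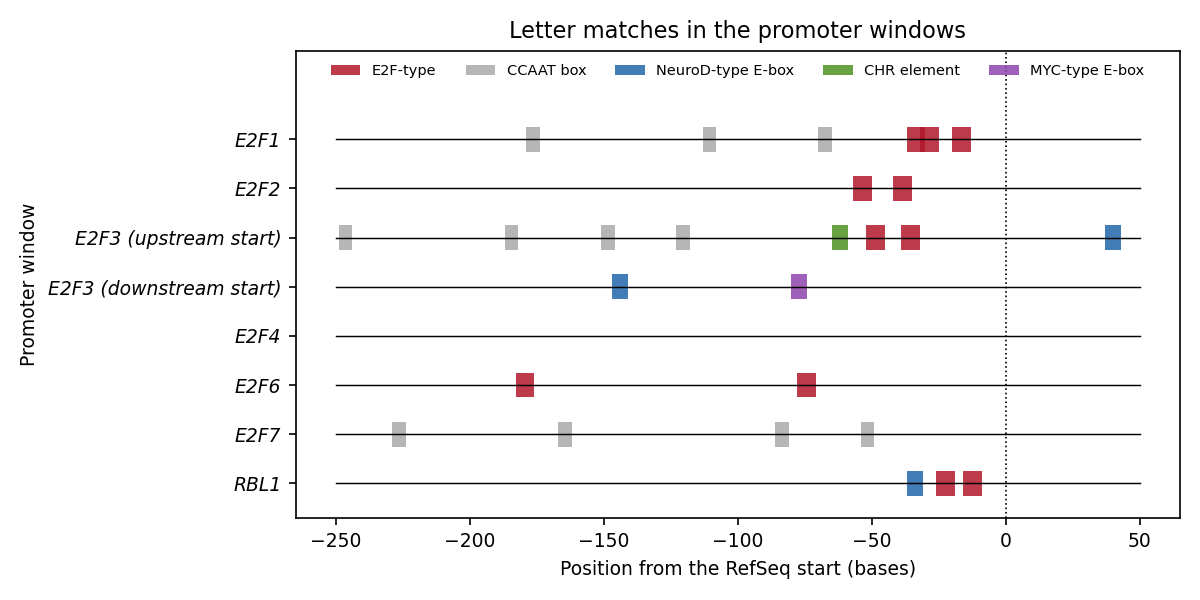
Letter matches in 8 RefSeq promoter windows of E2F and RB family genes. The x axis gives the distance in bases from the start (dotted line), each row is a window and each coloured block is a match on either strand. E2F-type blocks cluster within 60 bases of the start in E2F1, E2F2, RBL1 and the upstream window of E2F3, and are absent from E2F4 and E2F7.

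Transcripts of 8 of the 10 genes were lower in shNeuroD1 (edgeR quasi-likelihood test, adjusted p under 0.05), and 5 of them (E2F1, E2F2, E2F7, E2F8 and RBL1) fell by more than 2-fold. None was higher, by edgeR or by DESeq2, nor at an unadjusted p under 0.05. All 10 passed the filter on low counts. Of all 17537 genes tested, 28.2% were lower and 26.8% higher, and with a fold change beyond 2 as well 5.14% were lower and 8.79% higher. About as many genes rose as fell, and the family lay on the lower side, with a median log2 fold change of -0.92 against 0.01 over all genes tested. With library size alone as the scaling, 3639 genes were lower and 6114 higher, and the same number of members, 8, remained lower.

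**Figure D2:**
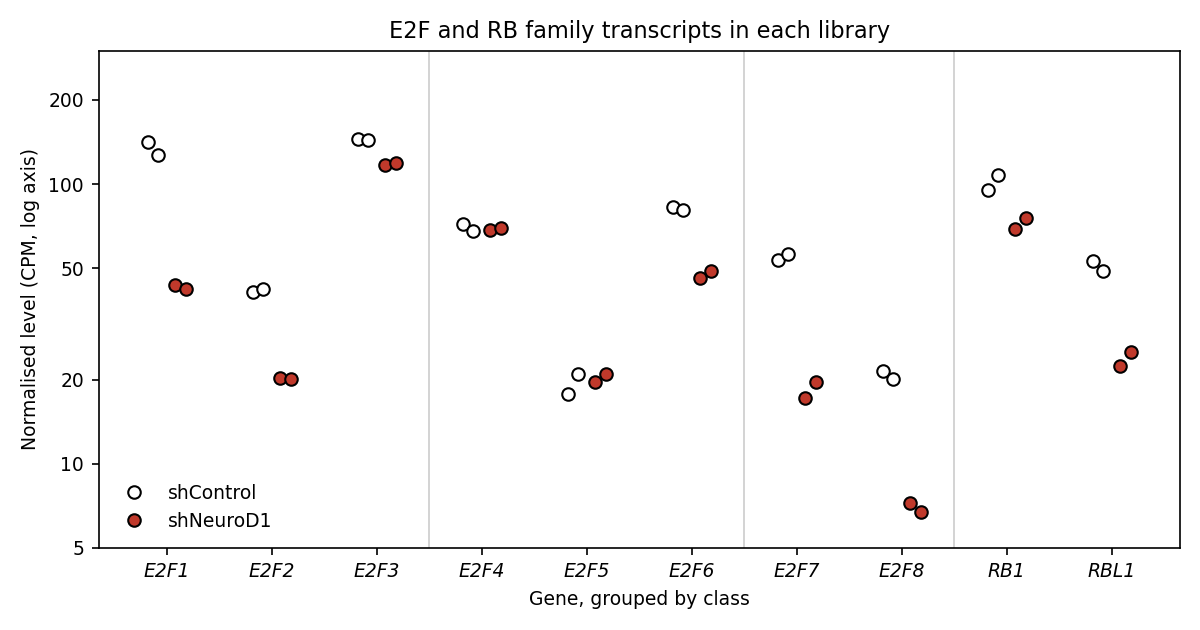
Normalised level (CPM, log axis) of each gene in each library, shControl in white and shNeuroD1 in red. In E2F4 and E2F5 the groups overlap, and in the other 8 genes both shNeuroD1 libraries lie below both shControl libraries. The share of all genes tested with such a gap was not counted.

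Among the activators, E2F1 fell most and E2F3 least. E2F1 (ENSG00000101412, chr20:33675683-33686404), the activator tied to both S phase entry and cell death, was at 142 and 128 CPM in shControl and 43.5 and 42.2 CPM in shNeuroD1. The shNeuroD1 mean stood at 31.8% of the control mean, far outside the gap between replicates. The log2 fold change was -1.65 ± 0.061 (SE, n = 2 per group), at an edgeR adjusted p of 5.9e-21. E2F2 (ENSG00000007968, chr1:23506430-23531220) was at 41.0 and 42.3 CPM in shControl and 20.3 and 20.1 CPM in shNeuroD1, with replicates almost level within each group. Its log2 fold change was -1.04 ± 0.082 (SE), at an edgeR adjusted p of 1.6e-12.

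E2F3 (ENSG00000112242, chr6:20401906-20493715), whose 2 start sites give the E2F3a and E2F3b proteins, was at 145 and 144 CPM in shControl and 117 and 119 CPM in shNeuroD1. The groups did not overlap, but the fall was small, to 81.5% of the control mean. The log2 fold change was -0.30 ± 0.048 (SE), at an edgeR adjusted p of 3.9e-06. The change of E2F1 exceeded that of E2F3 by 1.36 on the log2 scale (combined SE 0.077, taking the errors of the genes as independent) and that of E2F2 by 0.61 (SE 0.10). The counts do not separate E2F3a from E2F3b.

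The repressors E2F4 and E2F5 did not pass the test, whereas E2F6 did. E2F4 (ENSG00000205250, chr16:67192169-67198918), the main partner of the RB family in resting cells, was at 72.3 and 68.1 CPM in shControl and 68.6 and 69.5 CPM in shNeuroD1. Both shNeuroD1 libraries lay between the controls, and the log2 fold change was -0.02 ± 0.059 (SE), at an edgeR adjusted p of 0.77. Its sign turned with library size alone (0.09) and without shControl replicate 1 (0.01), and neither value passed. E2F5 (ENSG00000133740) had 17.8 and 20.9 CPM in shControl and 19.5 and 20.9 CPM in shNeuroD1. Its log2 fold change was 0.06 ± 0.10 (SE), at an edgeR adjusted p of 0.65, and -0.06 without shControl replicate 1. E2F5 shares 969 exon bases with C8orf59 on the other strand (391 to 440 counts a library), and the use of strand in counting was not stated, so the E2F5 values are uncertain.

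E2F6 (ENSG00000169016, chr2:11444375-11466177), the Polycomb-linked repressor, was at 83.1 and 81.0 CPM in shControl and 46.3 and 48.8 CPM in shNeuroD1. Each pair of replicates lay close together and the groups were far apart. The log2 fold change was -0.79 ± 0.061 (SE), at an edgeR adjusted p of 9.0e-13, below that of E2F4 by 0.76 (combined SE 0.084).

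The atypical E2Fs fell by about as much as E2F1. E2F7 (ENSG00000165891, chr12:77021247-77065580) was at 53.5 and 56.4 CPM in shControl and 17.2 and 19.6 CPM in shNeuroD1. E2F8 (ENSG00000129173, chr11:19224063-19241620) was at 21.4 and 20.2 CPM in shControl and 7.23 and 6.70 CPM in shNeuroD1. Both genes stood at about 33% of their control means, with no overlap between groups. The log2 fold changes were -1.58 for E2F7 (SE 0.082, edgeR adjusted p 4.5e-17) and -1.58 for E2F8 (SE 0.13, edgeR adjusted p 2.7e-12). E2F7 and E2F8, which repress many of the same promoters and E2F1 itself, differed by 0.01 on the log2 scale (combined SE 0.15). E2F1 differed from E2F7 by 0.07 (SE 0.10), within the error.

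Both RB family members fell, RBL1 more than RB1. RB1 (ENSG00000139687, chr13:48303726-48599436), the retinoblastoma tumour suppressor, was at 95.7 and 108 CPM in shControl and 69.2 and 75.6 CPM in shNeuroD1. The replicates of RB1 spread more than those of most members, yet the groups did not overlap. The log2 fold change was -0.49 ± 0.060 (SE), at an edgeR adjusted p of 2.5e-08. RBL1 (ENSG00000080839, chr20:36996349-37095995), which is made mainly in cycling cells, was at 53.1 and 48.9 CPM in shControl and 22.3 and 25.1 CPM in shNeuroD1. Its log2 fold change was -1.10 ± 0.080 (SE), at an edgeR adjusted p of 1.9e-13, below that of RB1 by 0.61 (combined SE 0.10). RBL2, the family gene typical of resting cells, is not among the 10. It was at 107.4 and 107.7 CPM in shControl and 113 and 111.5 CPM in shNeuroD1, with a log2 fold change of 0.06 ± 0.050 (SE), at an edgeR adjusted p of 0.31. RBL2 was called higher with library size alone (0.17, edgeR adjusted p 0.0039), a scaling that moved the median of all genes to 0.12.

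**Figure D3:**
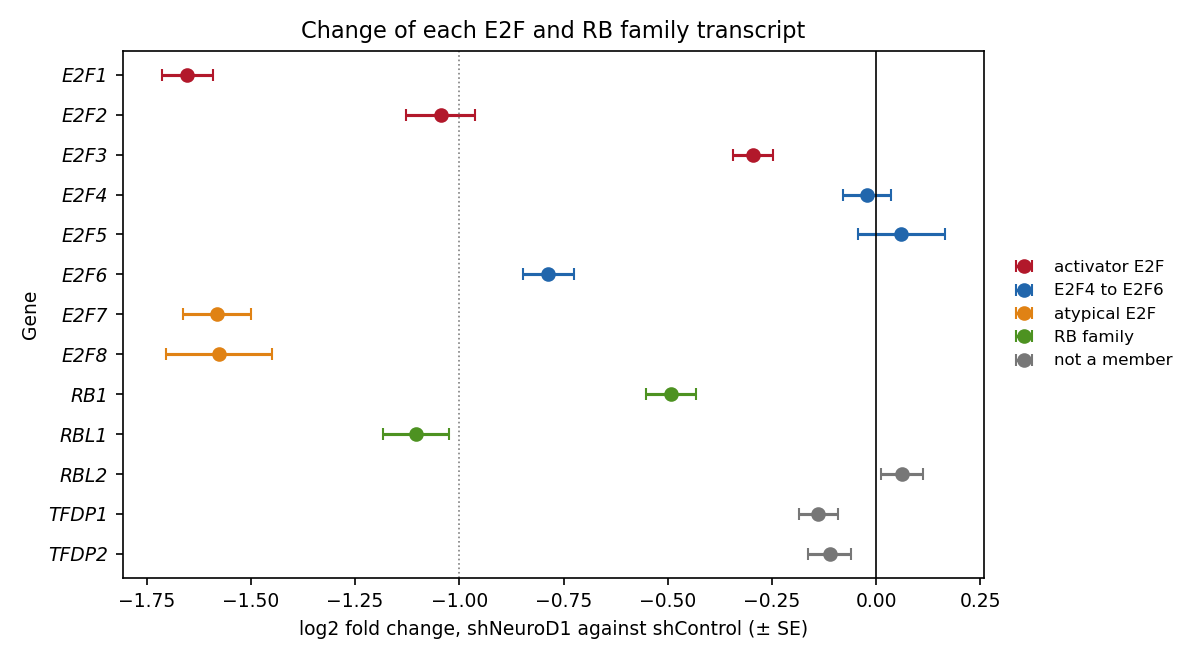
Log2 fold change of shNeuroD1 against shControl (x axis) with its standard error (bars) for the 10 genes, coloured by class, and for RBL2, TFDP1 and TFDP2 in grey. The dotted line marks a 2-fold fall. E2F1, E2F7 and E2F8 lie near -1.6, while E2F4, E2F5 and RBL2 lie at 0 within about 1 to 2 standard errors.

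By class, the median log2 fold change was -1.04 for the activators, -0.02 for E2F4 to E2F6, -1.58 for the atypical E2Fs and -0.80 for RB1 and RBL1. The classes were not uniform, since E2F3 fell less than E2F6. For a comparison of levels between genes, CPM was divided by the exon length of each gene in kilobases. On this scale E2F1 led in shControl at 53.8 ± 4.01 CPM per kb (SD, n = 2), before E2F3 at 28.0 ± 0.17. E2F6 at 20.2 ± 0.36 and E2F4 at 19.6 ± 0.83 followed and did not differ beyond their spread. RB1 came next at 15.8 ± 1.33, then E2F7 at 8.72 ± 0.33, RBL1 at 8.57 ± 0.50 and E2F2 at 7.64 ± 0.16. E2F7 and RBL1 did not differ beyond their spread, and E2F8 at 5.02 ± 0.22 and E2F5 at 3.26 ± 0.37 were lowest.

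In shNeuroD1 the order changed at the top. E2F3 led at 22.8 ± 0.26 CPM per kb, followed by E2F4 at 19.3 ± 0.17 and E2F1 at 17.1 ± 0.36. E2F8 was lowest at 1.68 ± 0.09. The first place of E2F1 in shControl was not seen in the FPKM of transcript starts, another quantification. There E2F1 was at 25.0 and 19.8 and E2F4 at 19.6 and 28.3, an order that differed between the replicates. The first place of E2F3 in shNeuroD1 was not seen there either. In shNeuroD1 replicate 2, E2F3 was at 2.53 FPKM, against 20.2 for E2F4 and 10.8 for E2F1. In shNeuroD1 replicate 1, E2F3 was unlisted.

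Summed per kb, the E2F transcripts came to 149.5 and 142.8 CPM per kb in shControl, against 82.0 and 83.1 in shNeuroD1. The activators made up 61.7% and 60.6% of this pool in shControl and 53.3% and 52.3% in shNeuroD1. E2F1 alone went from 37.9% and 35.7% to 21.2% and 20.3%. E2F4 to E2F6 took 29.2% and 29.7% of the pool in shControl but 41.3% and 42.0% of it in shNeuroD1, although their summed level was lower, at 43.6 and 42.5 against 33.8 and 34.9 CPM per kb. The atypical share was 9.14% and 9.67% against 5.45% and 5.68%. These shares do not depend on the scaling between libraries, and in each class the groups did not overlap. They do depend on the exon length taken for each gene. In the start FPKM, E2F3 was at 1.86 in shControl replicate 2 and 2.53 in shNeuroD1 replicate 2, and unlisted in both replicate 1 libraries. The activators did not make up most of the E2F transcripts in the replicate 2 libraries on that scale. In shControl replicate 2, E2F4 alone was at 28.3 FPKM, against 19.8 for E2F1 and 2.70 for E2F2. In shNeuroD1 replicate 2 the same genes were at 20.2, 10.8 and 0.986 FPKM. No test was made of these shares, and an exact two-sided permutation test of 2 libraries against 2 cannot give a p below 0.333.

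Among the RB family with RBL2 added, RBL1 made up 23.2% and 20.7% of transcripts per kb in shControl and 12.6% and 13.5% in shNeuroD1. RBL2 took 38.2% and 37.1% in shControl and 51.6% and 48.9% in shNeuroD1. RB1 stood at 38.6% and 42.1% in shControl and 35.8% and 37.6% in shNeuroD1. RBL2 shares 610 exon bases with AKTIP on the other strand (204 to 249 counts a library).

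**Figure D4:**
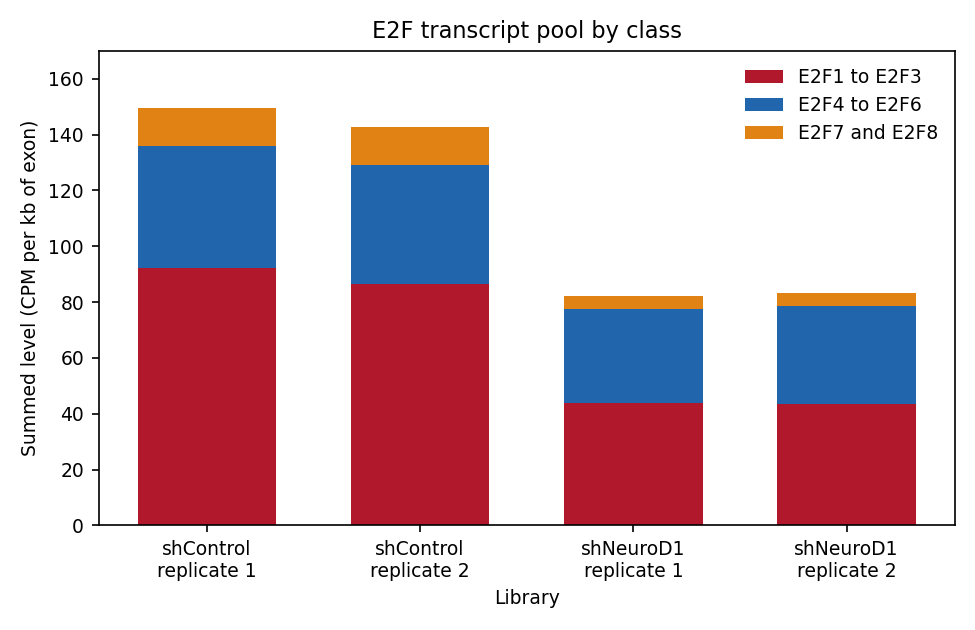
Summed E2F transcript level per library in CPM per kb of exon, stacked by class. The total is 149.5 and 142.8 in the shControl libraries, against 82.0 and 83.1 in shNeuroD1, and the largest loss is in E2F1 to E2F3.

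The second set of files lists FPKM for starts and ends of assembled transcripts, which give a view of the forms behind the counts. The tool that made them was not given in the sources used here, and an unlisted event is not a measured 0. The main E2F1 start (chr20:33686004-33686423) was at 21.8 and 19.8 FPKM in shControl and 6.27 and 9.24 FPKM in shNeuroD1. A form of E2F1 that keeps the intron at chr20:33677540-33678201 was listed in shNeuroD1 (1.37 and 1.77 FPKM) and unlisted in both shControl libraries.

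5 transcript ends of E2F7 were listed. The end of the full-length transcript (chr12:77021248-77024185) was at 3.79 and 1.76 FPKM in shControl and 1.29 and 2.24 FPKM in shNeuroD1, where the groups overlapped. A short form that ends inside the gene at chr12:77045622-77046328 was at 1.77 and 1.60 FPKM in shControl and 0.0259 and 0.0192 FPKM in shNeuroD1. Another internal end, at chr12:77044534-77044795, went the other way, at 0.0038 and 0.0014 FPKM in shControl and 0.144 and 0.263 FPKM in shNeuroD1. All values of this end were well below 1 FPKM, the mean asked of a gene in the FPKM fits. The short end at chr12:77034006-77034042 was listed in shControl alone (0.191 and 0.130 FPKM), and the values of the end at chr12:77027944-77028138 overlapped between the groups. In E2F8, the start at chr11:19240548-19240945 was at 1.83 and 2.03 FPKM in shControl and 1.03 and 0.804 FPKM in shNeuroD1. Upstream starts within chr11:19241407-19241620 were listed in both shControl libraries and in neither shNeuroD1 library.

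The transcript end of RBL1 (chr20:36996349-36998929) was at 5.49 and 4.70 FPKM in shControl and 2.00 and 2.03 FPKM in shNeuroD1. The RB1 start (chr13:48303747-48304049) was at 13.7 and 16.1 FPKM in shControl and 11.1 and 11.9 FPKM in shNeuroD1. For E2F6 the values scattered, with its first start at 4.86 and 4.37 FPKM in shControl and at 2.92 and 7.95 FPKM in shNeuroD1. Tested as gene FPKM with limma, 0 of the 9 genes with a value passed, with a lowest adjusted p of 0.060 for E2F1 (log2 fold change -1.21). E2F7 was at -0.72 there (limma adjusted p 0.19). E2F3 had no listed start in 2 libraries and no value.

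The partners that E2F1 to E2F6 need to bind DNA moved little. TFDP1, the main DP partner, was at 177 and 175 CPM in shControl and 164 and 156 CPM in shNeuroD1 (log2 fold change -0.14 ± 0.046 SE, edgeR adjusted p 0.012). The TFDP1 call did not hold with DESeq2 (adjusted p 0.061) or with library size alone (0.65). It was also lost without shControl replicate 1 (0.087), shControl replicate 2 (0.070) or shNeuroD1 replicate 2 (0.25). TFDP2 was at 110 and 117 CPM in shControl and 105 and 105 CPM in shNeuroD1 (log2 fold change -0.11, edgeR adjusted p 0.066). It passed without shControl replicate 1 (edgeR adjusted p 0.045). TFDP3 was too low to test.

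The DREAM complex joins E2F4 and RBL1 or RBL2 to the MuvB core, and MuvB later works with MYBL2 and FOXM1 to switch on mitotic genes. Of 9 genes, 7 were lower and 0 higher (edgeR, 0 also at an unadjusted p under 0.05 and with DESeq2), with a median log2 fold change of -0.41. Among all genes tested 28.2% were lower and 26.8% higher. MYBL2 (B-Myb), a known E2F target, was at 203 and 214 CPM in shControl and 102 and 93.3 CPM in shNeuroD1 (log2 fold change -1.10). FOXM1 (-0.81) and the core subunits LIN54 (-0.80) and LIN9 (-0.61) were also lower, while RBL2 and LIN37 did not pass. 1 gene, RBL2, was called higher with library size alone.

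E2F6 acts in a Polycomb-like complex with MGA and PCGF6. Of 10 complex genes, 9 were lower and 0 higher (edgeR, 0 also at an unadjusted p under 0.05 and with DESeq2), with a median log2 fold change of -0.26. The shares over all genes tested were 28.2% lower and 26.8% higher. With DESeq2 or with library size alone 6 were lower, and without shControl replicate 2 the number was 5. RYBP, which did not pass, was called higher with library size alone. MGA, the MAX partner that anchors the complex, was at 42.6 and 49.4 CPM in shControl and 20.05 and 22.4 CPM in shNeuroD1 (log2 fold change -1.12). PCGF6, its Polycomb ring-finger subunit, was lower by -0.90. RNF2 (-0.29) and YAF2 (-0.28) changed less. The RNF2 call was lost without shControl replicate 2 (edgeR adjusted p 0.063), and that of YAF2 without either shControl replicate (0.094 and 0.057), without shNeuroD1 replicate 2 (0.076) and with DESeq2 (0.051). Of 10 germline genes known as E2F6 targets, 3 had enough counts and 1 of these was higher, beside 26.8% of all genes tested. STAG3, a meiotic cohesin subunit, rose from 26.6 and 24.7 CPM to 64.2 and 60.3 CPM (log2 fold change 1.28 ± 0.073 SE, edgeR adjusted p 6.0e-16). SMC1B (0.77) and SYCP3 (-0.12) did not pass, and neither was above 1.95 CPM in any library. Whether the rise of STAG3 is tied to the fall of E2F6 was not tested.

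The cyclins and kinases that phosphorylate RB proteins were mostly lower. Of 8 genes 7 were tested, 6 were lower and 0 higher (edgeR, 0 also at an unadjusted p under 0.05 and with DESeq2), with a median log2 fold change of -0.68. Over all genes tested, 28.2% were lower and 26.8% higher. CDK2, the partner of cyclin E, was at 171 and 168 CPM in shControl and 66.5 and 71.5 CPM in shNeuroD1 (log2 fold change -1.30 ± 0.052 SE, edgeR adjusted p 5.8e-20). CCNE2 (-1.19) and CCNE1 (-0.68), which encode cyclin E, and CDK4 (-0.82), the partner of cyclin D, fell as well. The CCNE1 call was lost in the FPKM fits (log2 fold change -0.038 and -0.054, limma adjusted p 0.94 and 0.93).

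CDK inhibitors were called in each direction at shares near those of all genes tested (28.2% lower and 26.8% higher). Of 6 tested, CDKN1C (p57, log2 fold change 0.94) and CDKN2A (p16 and ARF, 0.89) were higher, CDKN2C (p18, -0.67) and CDKN1B (p27, -0.51) were lower, and 2 did not pass. CDKN2A was low, at 3.87 and 5.48 CPM in shControl and 8.22 and 9.26 CPM in shNeuroD1, and its call was lost without shControl replicate 1 (log2 fold change 0.66, edgeR adjusted p 0.051).

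Of 4 genes of the phosphatase that removes phosphate from RB, the catalytic subunit PPP1CA was lower (90.9 and 88.9 against 53.6 and 53.0 CPM, log2 fold change -0.75) and the other 3 did not pass. A share of 1 in 4 is near the 28.2% of all genes tested that were lower. PPP1CC, another catalytic subunit, was called higher with library size alone and without shControl replicate 1 (edgeR adjusted p 0.049). Of 5 genes for turnover of E2F and RB proteins, 3 were lower, beside 28.2% of all genes tested. They were SKP2 (-0.86) and CCNF (-0.46), F-box subunits of ubiquitin ligases, and MDM2 (-0.53), the ligase of p53 that also binds RB1. MDM2 had the other sign in the FPKM fits (0.39 and 0.42) and passed in neither. Of 13 RB-binding chromatin factors, 4 were lower and 4 higher, with a median of -0.11 (0.0057 with library size alone). These shares are also near the 28.2% and 26.8% of all genes. The corepressor SIN3A (-0.65) and RBBP8, the DNA end resection factor also called CtIP (-0.55), fell, as did the deacetylase HDAC2 (-0.22). SIN3B, the paralogue of SIN3A, was at 57.5 and 60.7 CPM in shControl and 71.7 and 65.4 CPM in shNeuroD1 (log2 fold change 0.21, edgeR adjusted p 0.0046). The 4 higher calls became 1 with DESeq2, 2 without shControl replicate 1 or without shNeuroD1 replicate 2, and 0 without shControl replicate 2 or without shNeuroD1 replicate 1. The SIN3B call itself was lost with DESeq2 (adjusted p 0.062) and without shControl replicate 1 (0.19), shControl replicate 2 (0.095) or shNeuroD1 replicate 1 (0.17).

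Cell cycle genes known as E2F targets were lower without exception in the list of 30, and 22 of them fell more than 2-fold. Over all genes tested 28.2% were lower, and 5.14% were lower by more than 2-fold. Their median log2 fold change was -1.25, and the smallest fall was -0.61. UHRF1, which keeps DNA methylation through replication, was at 151 and 154 CPM in shControl and 39.6 and 45.1 CPM in shNeuroD1 (log2 fold change -1.85). CDC6, which loads the replicative helicase, went from 122 and 122 CPM to 34.1 and 34.8 CPM (-1.83). TK1 (thymidine kinase, -1.62) and MCM10 (a replication initiation factor, -1.62) followed. RefSeq windows were held for 26 of the 30 genes, and 18 of the 26 (69.2%) held at least 1 of the 4 E2F-type strings, beside 10.4% of all 27305 gene symbols with a window. The strings were also held by 2 of 3 DP partners and 2 of 3 phosphatase genes with a window, and by 0 of 4 RB cyclins and kinases. Because the 30 genes were picked as known E2F targets, their share reflects how the list was made. A link between the strings and the falls was not tested.

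Genes known as targets of E2F1 in cell death divided. Of 11, 6 were lower and 4 higher, beside 28.2% and 26.8% of all genes tested. TP73, a p53 relative that E2F1 activates, was at 10.7 and 12.8 CPM in shControl and 2.63 and 1.97 CPM in shNeuroD1 (log2 fold change -2.35 ± 0.19 SE, edgeR adjusted p 5.0e-12). HRK, a BH3-only killer protein, fell from 79.2 and 81.0 CPM to 19.3 and 18.3 CPM (-2.09). BBC3, which encodes the BH3-only protein PUMA, rose from 6.45 and 5.73 CPM to 12.5 and 13.8 CPM (1.11), and PPP1R13B, which encodes the p53 cofactor ASPP1, rose from 26.9 and 25.3 CPM to 54.8 and 55.6 CPM (1.08). These groups overlapped in neither direction. The lists were put together with earlier results of these data known, so their counts are descriptions.

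**Figure D5:**
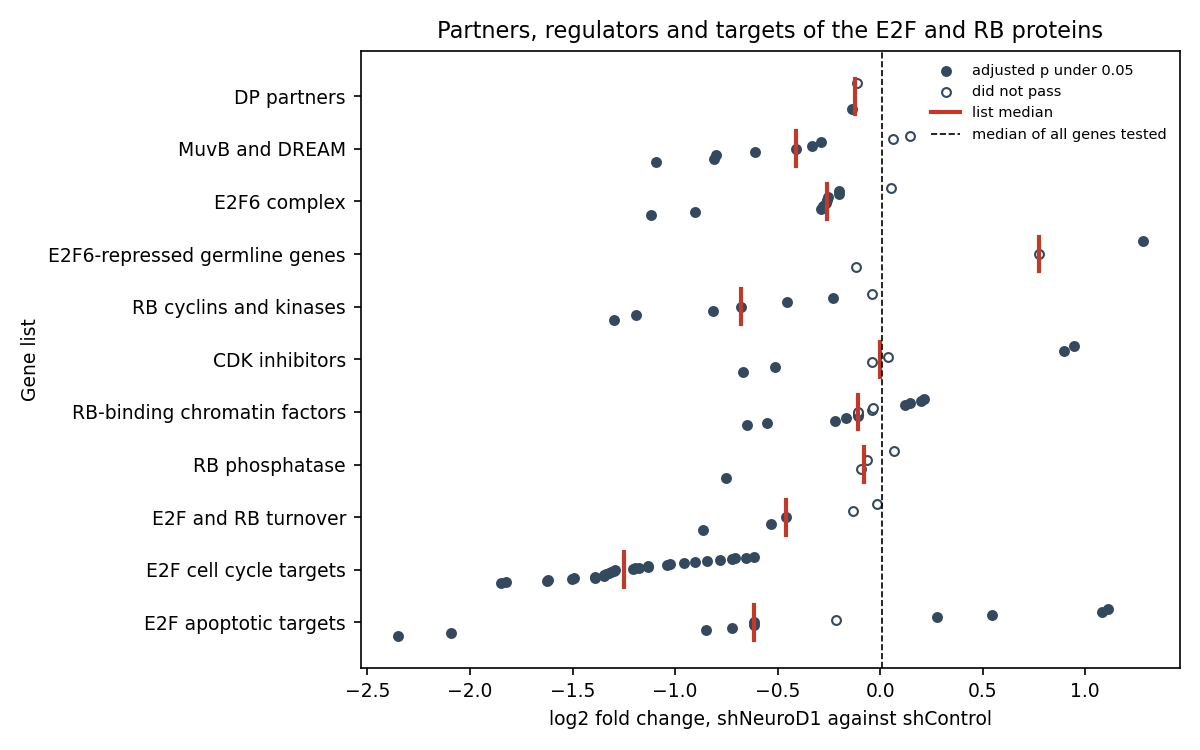
Log2 fold change of each tested gene (points, filled where the edgeR adjusted p is under 0.05) in 11 lists of partners, regulators and targets, with list medians in red and the median of all genes tested as a dashed line. All 30 cell cycle targets lie below -0.6, whereas CDK inhibitors and apoptotic targets lie on both sides of 0.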

How the data were processed

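Group and replicate came from the title of each sample. The authors deposited raw read counts per Ensembl gene, and per the submitters' processing notes reads were trimmed with cutadapt 1.9.1, aligned to hg38 with HISAT2 2.0.1 and counted with HTSeq 0.6.1. The strand setting was not given in the sources used here. The authors also deposited FPKM values of transcript starts, ends and splicing events for each library.

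Counts were fitted in edgeR 4.0.16 (R 4.3.3): filterByExpr (minimum count 10, 17537 genes kept), TMM scaling, the quasi-likelihood F test (two-sided) and Benjamini-Hochberg adjustment over all genes tested. Standard errors come from the same fit. A call means an adjusted p under 0.05, in either direction. No column was left without a sample. Levels per kb use exon lengths of GENCODE 29, and gene coordinates are from that release. Alternatives used DESeq2 1.42.0 and limma 3.58.1 on log2(FPKM + 1) or log2(FPKM + 0.1). Gene FPKM is the sum over listed starts, for 9903 genes listed in all 4 libraries with a mean of at least 1 FPKM. A start unlisted in a library adds nothing to the sum of that library. The fits were tested on simulated data. Promoter sequences are RefSeq windows.

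The members, lists and tests were chosen with earlier results of these data known. The genes named are NEUROD1, the 10 members, RBL2, TFDP1, TFDP2 and, in each list, up to 4 genes with the largest change past the threshold. C8orf59, AKTIP, LIN37, SMC1B, SYCP3, RYBP, PPP1CC and TFDP3 were named after their values were seen. 1 list of cell type markers is not reported here.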

Additional observations from a re-analysis of the deposited data

How the results depend on the processing

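The members' 8 lower calls held, with 0 higher, in each of the 6 count-based alternatives and without each library in turn (8 to 8 lower, 0 to 0 higher). They did not hold with limma on log2(FPKM + 1) or log2(FPKM + 0.1), where 0 of 9 tested members were lower, and the cause was not tested. In the FPKM fits a start unlisted in a library adds nothing to the gene FPKM of that library, as happened for E2F6. Adding a log2 fold change beyond 1 left 5 lower. The activator median was -0.93 with library size alone, -1.06 with no filter and -1.03 with a 1 CPM filter. It was -0.996 and -1.19 in the FPKM fits, which held 2 of the 3 activators. The E2F4 to E2F6 median was 0.090 with library size alone and -0.29 and -0.30 in the FPKM fits. The atypical median was -1.47 with library size alone and -0.84 and -1.23 in the FPKM fits, and the RB family median was -0.69 with library size alone and -0.70 on log2(FPKM + 1). Library size alone moved the median of all genes to 0.12. Leaving out 1 library gave activator medians of -1.08 to -1.03, E2F4 to E2F6 medians of -0.076 to -0.016, atypical medians of -1.60 to -1.56 and RB family medians of -0.87 to -0.73, where the lone library was assumed to vary like the other group. Signs turned for E2F4 (0.090 with library size alone, -0.076 to 0.010 without 1 library, highest without shControl replicate 1), E2F5 (-0.060 without shControl replicate 1, up to 0.17 without shControl replicate 2) and TFDP2 (0.00064 with library size alone). In the FPKM fits signs turned for TFDP1 (0.081 and 0.083), TFDP2 (0.11 and 0.12) and MDM2 (0.39 and 0.42). Medians turned for DP partners in the FPKM fits (0.10 and 0.10) and for RB-binding chromatin factors (0.0057 with library size alone, 0.12 and 0.13 in the FPKM fits). With library size alone the phosphatase median was 0.032 (RB phosphatase, otherwise -0.080) and that of CDK inhibitors 0.11 (otherwise -0.0023, and -0.26 to 0.20 without 1 library). Single-gene calls of the 47 named genes were lost in 6 of 282 values of the count fits, in 11 of 188 values without 1 library and in 56 of 78 of the FPKM fits, which held 39 of them. Fewer genes were called at all in the FPKM fits (279 lower and 237 higher on log2(FPKM + 1), against 4939 and 4698). No median could be given for the germline list there, because none of its genes had an FPKM value.

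The replicate numbers showed no pairing of the libraries (correlation of the deviations of same-numbered libraries 0.030), a value that cannot show they were unpaired. The replicate block gave 8 members lower, with 5000 genes lower and 4748 higher over the whole table. Depth was enough for each member to pass the filter, and the number of libraries, 2 per group, limits the precision.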
